A study of Homo sapiens with 24 samples.

Results

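Aminoacyl-tRNA synthetases are the enzymes that join each amino acid to its transfer RNA. Their transcripts were taken from a table of 60232 Ensembl genes by symbol, as protein-coding genes named with a 1-letter amino acid code followed by ARS, with or without the suffix 1 or 2, plus EPRS1, FARSA and FARSB. The rule found 37 genes. Of these, 20 lack the suffix 2 and encode cytosolic enzymes, and 17 carry it and encode mitochondrial enzymes. GARS1 and KARS1, which are counted with the cytosolic enzymes here, each supply both compartments.

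RNA was sequenced from 22Rv1 cells, an established human prostate carcinoma line in culture, in 3 groups of 3 libraries. Cells were given KB05 or KB02, each at 200 µM for 1 h followed by 2 h of recovery in fresh medium, or the vehicle DMSO. RNA was collected at the 3 h time point in all groups, and treatments were done in biological triplicate. The compounds are named by code only, and all values come from 1 cell line, with no knockdown or other genetic change in any group. The series lists another 15 samples taken at 8 h, which were not analysed here.

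The human genome holds separate genes for the cytosolic and the mitochondrial enzyme of most amino acids, all of them nuclear. Cells lack a mitochondrial glutaminyl-tRNA synthetase, and mitochondria instead charge that tRNA with glutamate and convert it with the amidotransferase built from QRSL1, GATB and GATC. Synthetases fall into 2 unrelated structural classes, I and II, by the fold of the catalytic domain. In the cytosol, 8 synthetases, among them EPRS1, IARS1, LARS1, MARS1, QARS1, RARS1 and KARS1, assemble with the scaffold proteins AIMP1, AIMP2 and EEF1E1 into the multisynthetase complex. Many cytosolic synthetase genes are known targets of ATF4, the transcription factor made when phosphorylation of eIF2 slows general translation, and ATF4 binds the C/EBP-ATF response element with a C/EBP partner.

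The core of that element, TGATGNAA, was searched on both strands of RefSeq promoter windows on GRCh38.p14, each holding 250 bases before and 50 bases after a transcription start. A window was found for 30 of the 37 genes. The core was present in 7 of 16 cytosolic genes (43.8%) and in 1 of 14 mitochondrial genes (7.14%). Among all 15842 protein-coding genes with a window, 571 (3.6%) held it in at least 1 window. The 8 stretches are shown because a larger share of cytosolic synthetase windows than of all windows held the core. Each is 30 bases read 5′ to 3′ along the strand of the gene, with the core or its reverse complement in capitals.
AARS1: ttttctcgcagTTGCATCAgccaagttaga
CARS1: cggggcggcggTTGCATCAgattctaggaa
GARS1: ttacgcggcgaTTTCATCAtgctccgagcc
IARS1: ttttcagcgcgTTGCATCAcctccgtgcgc
MARS1: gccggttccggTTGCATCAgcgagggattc
NARS1: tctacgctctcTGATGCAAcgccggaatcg
TARS1: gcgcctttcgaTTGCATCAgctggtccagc
YARS2: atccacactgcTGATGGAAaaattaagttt

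The core or its complement began close to the RefSeq transcription start of its window in 6 of these genes. The gene spans printed further below come from GENCODE release 29 and can begin upstream of these starts. For MARS1 the GENCODE span begins at chr12:57475445. It lay at position -2 in CARS1 (chr11:3057407-3057436, minus strand), at -4 in MARS1 (chr12:57488053-57488082, plus strand), at 3 in TARS1 (chr5:33440956-33440985, plus strand) and at -13 in IARS1 (chr9:92293692-92293721, minus strand). In NARS1 it lay at 15 (chr18:57621804-57621833, minus strand) and in GARS1 at -33 (chr7:30594834-30594863, plus strand). The matches of AARS1 at -187 (chr16:70289675-70289704, minus strand) and of YARS2 at -197 (chr12:32756076-32756105, minus strand) lay further upstream. The free position held the same base in all cytosolic matches but that of GARS1. A match is only these letters in this window, and says nothing of binding.

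All 37 genes had at least 125 counts in every library, so each could be tested. Library totals ran from 15507130 to 21900671 estimated counts, and levels are given as CPM, a gene's counts relative to the library's total, after scaling by trimmed mean of M-values (TMM) factors. On a per-length scale, CPM per kb of transcript, FARSA had the highest level in DMSO cells at 108 ± 8.68, followed by VARS1 at 99.3 ± 10.1, SARS1 at 80.9 ± 7.37 and AARS1 at 78.7 ± 4.38 (SD, n = 3). The ranges of mean ± SD overlapped between FARSA and VARS1, and between SARS1 and AARS1. WARS2 at 3.60 ± 0.451 and PARS2 at 3.91 ± 0.258 CPM per kb were the lowest, and their ranges of mean ± SD overlapped too. The median was 44.3 CPM per kb over the cytosolic genes and 14.0 over the mitochondrial ones in DMSO cells. IARS2, the mitochondrial isoleucine enzyme, was the highest mitochondrial gene at 60.0 ± 4.12 CPM per kb, with a mean above those of 13 of the 20 cytosolic genes. These rankings depend on the annotated transcript length chosen for each gene, and which transcripts were expressed was not tested.

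**Figure D1:**
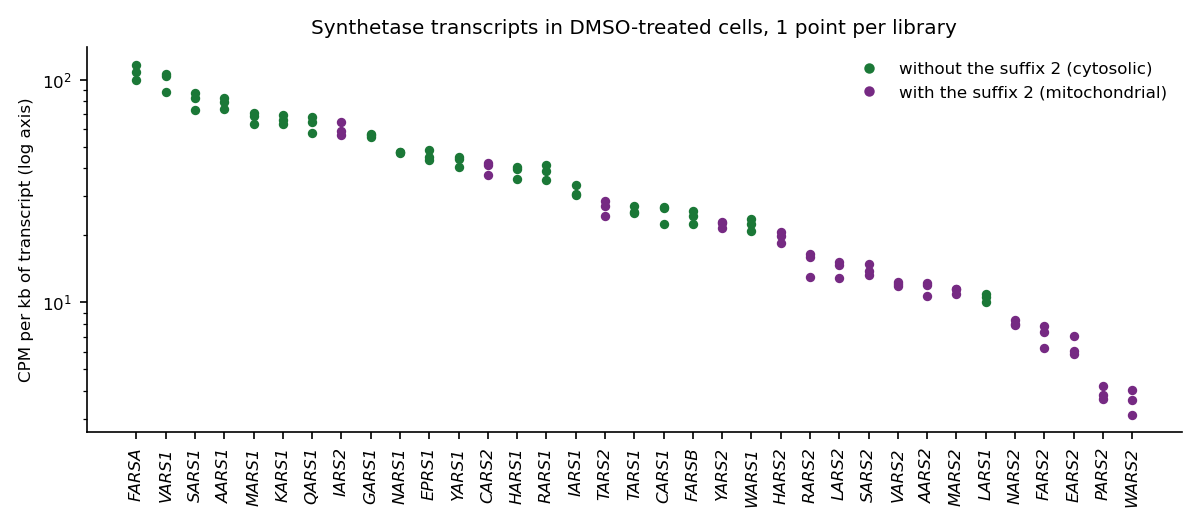
CPM per kb of transcript (log axis) of the synthetase genes described here in the 3 DMSO libraries, 1 point per library, ordered by mean and coloured by the suffix rule. Cytosolic genes fill most of the upper end, from FARSA at 108, and IARS2 at 60.0 is the highest mitochondrial gene.

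The prostate luminal markers were expressed, with the 10 genes summing to 3174 to 3233 CPM in KB05 libraries, 2461 to 2620 in KB02 libraries and 2698 to 3064 in DMSO libraries. The largest parts were the keratins KRT8 and KRT18, with DMSO means of 1061 and 719 CPM. The sums therefore do not show how single markers changed. Of 13 markers of other cell types, PECAM1, VWF, MYH11, KRT5 and TP63 had too few counts to test, with at most 12 in a library. The 13 summed to 233 to 261 CPM with KB05, 161 to 178 with KB02 and 265 to 311 with DMSO, most of it the neuroendocrine marker SYP. SYP had 215, 190 and 213 CPM in KB05 libraries, 119, 124 and 129 CPM in KB02 libraries, against 229, 250 and 262 CPM in DMSO libraries. In bulk RNA, fewer cells of a type and less RNA per cell cannot be told apart, and the part of these shifts in the results was not tested.

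KB02 changed synthetase transcripts in both directions. Relative to DMSO, 7 of the 37 genes rose and 8 fell at an adjusted p under 0.05 in edgeR's quasi-likelihood test, 40.5% in all. Among all 18379 genes tested, 46.1% were called, with 22.8% higher and 23.3% lower, so the share of synthetases called was no larger than that of genes in general. Calls were made in 11 of 20 cytosolic genes (55%) and 4 of 17 mitochondrial genes (23.5%), a difference that was not tested. The mitochondrial genes had fewer counts, with a median log2 CPM of 5.44 against 7.13 for the cytosolic genes, and the part of depth in this was not tested. The median log2 fold change was 0.04 over the cytosolic genes and -0.03 over the mitochondrial genes, beside 0.0016 over all genes. Scaling by library size alone moved the median of all genes to 0.13 and the split to 17 higher and 5 lower synthetases, with 63.8% of calls higher over all genes in place of 49.5%.

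The cytosolic genes that rose most with KB02 were CARS1, YARS1, TARS1 and GARS1. CARS1, the cysteine enzyme (chr11:3000922-3057613), had 111, 102 and 115 CPM in KB02 libraries, against 62.2, 73.7 and 73.3 CPM in DMSO libraries. All KB02 libraries lay above all DMSO libraries, and the log2 fold change was 0.65 ± 0.08 (SE, adjusted p = 1.38e-08). Such separation was common, since 4942 of all 18379 genes tested lay wholly above DMSO with KB02 and 4889 wholly below. YARS1, the tyrosine enzyme (chr1:32775237-32818153), had 221, 212 and 211 CPM with KB02, against 131, 145 and 143 CPM with DMSO. The groups did not overlap, and YARS1 rose by 0.62 ± 0.07 on the log2 scale (SE, adjusted p = 3.41e-09). TARS1, which charges threonine (chr5:33440696-33469539), reached 171, 160 and 154 CPM with KB02, against 110, 109 and 117 CPM with DMSO. Again no libraries overlapped, and the change was 0.53 ± 0.07 on the log2 scale (SE, adjusted p = 1.02e-07). GARS1, the glycine enzyme of both compartments (chr7:30594681-30634033), had 187, 187 and 190 CPM in KB02 libraries, against 145, 150 and 148 CPM in DMSO libraries. The replicates of GARS1 were close together and the groups apart, and it rose by 0.35 ± 0.06 on the log2 scale (SE, adjusted p = 3.13e-05).

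Of the other cytosolic genes, the histidine enzyme HARS1 rose by 0.27 ± 0.07 and the methionine enzyme MARS1 by 0.21 ± 0.07 on the log2 scale. MARS1 exons overlap DDIT3 and ARHGAP9 on the opposite strand, and 3.95% of its 31-base words occur in DDIT3, which had 362, 365 and 424 CPM with KB02 and 62.6, 60.2 and 62.3 CPM with DMSO. The strand setting of the counting is not stated in the sources used here, and the part of DDIT3 reads in the MARS1 value was not tested. Without DMSO replicate 1, the MARS1 rise was 0.16 with an adjusted p of 0.0503. HARS1 shares 5.02% of its 31-base words with its neighbour HARS2, which lies on the other strand.

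The falls with KB02 were led by QARS1 in the cytosol and IARS2 in mitochondria. QARS1, the glutamine enzyme of the multisynthetase complex (chr3:49095932-49105135), had 91.9, 96.6 and 95.6 CPM in KB02 libraries, against 162, 182 and 192 CPM in DMSO libraries. The groups were far apart, and the log2 fold change was -0.92 ± 0.07 (SE, adjusted p = 3.84e-12), a 1.89-fold fall. RARS1, the arginine enzyme of the same complex (chr5:168486445-168519299), had 55.4, 66.7 and 52.6 CPM with KB02, against 76.2, 83.7 and 88.6 CPM with DMSO. KB02 replicate 2 was the highest of its group and still below every DMSO library, and RARS1 fell by 0.51 ± 0.09 on the log2 scale (SE, adjusted p = 2.89e-05). The valine enzyme VARS1 fell by 0.24 ± 0.07 and the asparagine enzyme NARS1 by 0.18 ± 0.07. VARS1 lost its call without DMSO replicate 2 or KB02 replicate 2 (adjusted p = 0.141 to 0.178, log2 fold change -0.16 to -0.14) and with library size alone (-0.11, adjusted p = 0.206). NARS1 lost its call without DMSO replicate 2 or any 1 KB02 replicate (adjusted p = 0.0914 to 0.151, log2 fold change -0.16 to -0.14), with upper-quartile factors and with library size alone (-0.13 to -0.05, adjusted p = 0.103 to 0.554).

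IARS2, on chr1:220094102-220148041, had the largest fall of the 37 genes with KB02. It had 116, 109 and 96.9 CPM in KB02 libraries, against 229, 210 and 201 CPM in DMSO libraries. The groups were widely separated, and the fall was 1.99-fold, or -0.99 ± 0.08 on the log2 scale (SE, adjusted p = 2.39e-12). LARS2, the mitochondrial leucine enzyme (chr3:45388506-45549421), had 45.6, 44.3 and 38.4 CPM with KB02, against 71.8, 69.9 and 60.8 CPM with DMSO, and fell by 0.66 ± 0.08 on the log2 scale (SE, adjusted p = 6.18e-08). All KB02 libraries lay below all DMSO libraries for LARS2. CARS2, the cysteine enzyme of mitochondria, was the only mitochondrial gene to rise, by 0.18 ± 0.07, and lost its call without DMSO replicate 1 or KB02 replicate 3 (log2 fold change 0.12 to 0.17, adjusted p = 0.0757 to 0.181), with no filter and with only the groups compared (0.16 to 0.18, adjusted p = 0.0605 to 0.115). The other 13 mitochondrial genes were not called with KB02, at log2 fold changes between -0.17 for PARS2 and 0.19 for NARS2.

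**Figure D2:**
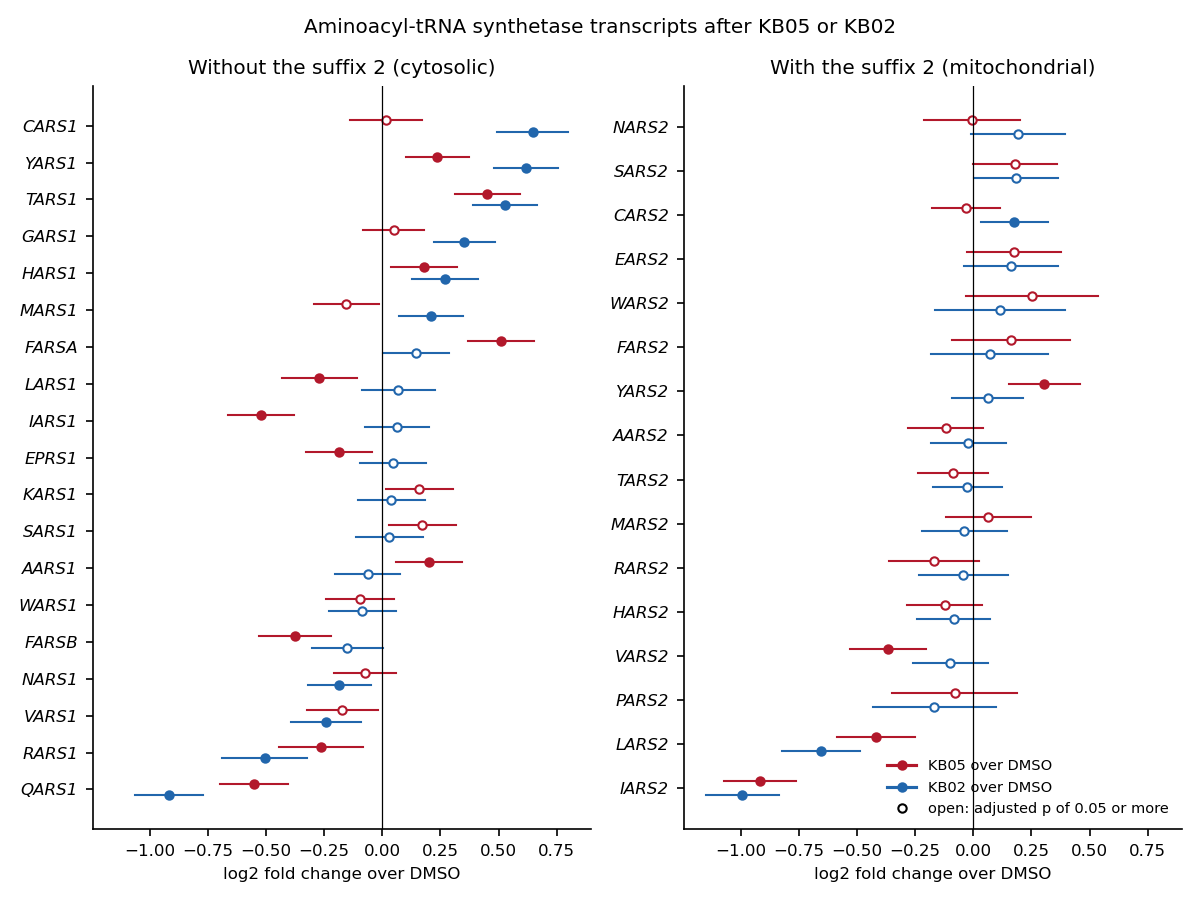
Log2 fold change over DMSO of the synthetases described here after KB05 (red) and KB02 (blue), with 95% intervals, cytosolic genes left and mitochondrial genes right, both ordered by the KB02 value. Filled points passed an adjusted p of 0.05. CARS1 at 0.65 and QARS1 at -0.92 mark the ends of the cytosolic range with KB02, and IARS2 lies near -0.9 to -1.0 with either compound.

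KB05 also changed synthetase transcripts in both directions. Relative to DMSO, 6 of the 37 genes rose and 10 fell, 43.2% in all, against 39.8% called among all genes tested, with 18.7% higher and 21.1% lower. Among the cytosolic genes 5 rose and 6 fell of 20 (55%), and among the mitochondrial genes 1 rose and 4 fell of 17 (29.4%). The median log2 fold change was -0.03 over the cytosolic genes and -0.08 over the mitochondrial genes, beside -0.0025 over all genes. Because KB05 and KB02 were set against the same DMSO libraries, the lists of changed genes are not independent of each other.

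FARSA, which encodes the alpha subunit of the cytosolic phenylalanine enzyme (chr19:12922479-12934037), rose most with KB05. It had 274, 276 and 289 CPM in KB05 libraries, against 180, 197 and 212 CPM in DMSO libraries. No KB05 library overlapped a DMSO library, and the log2 fold change was 0.51 ± 0.07 (SE, adjusted p = 6.11e-07). Of all 18379 genes tested, 4365 lay wholly above DMSO with KB05 and 4669 wholly below. TARS1 had 150, 158 and 152 CPM with KB05, against the 110, 109 and 117 CPM of DMSO libraries, and rose by 0.45 ± 0.07 on the log2 scale (SE, adjusted p = 3.06e-06). The groups were again apart for TARS1. YARS2, the mitochondrial tyrosine enzyme (chr12:32727490-32755902), had 54.4, 61.0 and 60.5 CPM with KB05, against 45.8, 48.5 and 48.1 CPM with DMSO, and rose by 0.31 ± 0.08 (SE, adjusted p = 0.00153). It was the only mitochondrial gene to rise with KB05, and its KB05 replicate 1 was nearest to the DMSO libraries. YARS1 had 164, 163 and 167 CPM with KB05, against 131, 145 and 143 CPM with DMSO, and rose by 0.24 ± 0.07 (SE, adjusted p = 0.00517).

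The alanine enzyme AARS1 rose by 0.20 ± 0.07 and HARS1 by 0.18 ± 0.07 on the log2 scale with KB05. Both calls were lost when single libraries were left out. AARS1 was not called without DMSO replicate 1 or 2 or KB05 replicate 1 or 3 (log2 fold change 0.16 to 0.21, adjusted p = 0.0501 to 0.0749). HARS1 was not called without DMSO replicate 1 or any 1 KB05 replicate (log2 fold change 0.13 to 0.20, adjusted p = 0.0534 to 0.187). It was also not called with RLE factors, with no filter or with DESeq2 (log2 fold change 0.16 to 0.18, adjusted p = 0.0607 to 0.0785).

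The largest fall with KB05 was again in IARS2, with 113, 121 and 105 CPM in KB05 libraries, against 229, 210 and 201 CPM in DMSO libraries. Its log2 fold change was -0.92 ± 0.08 (SE, adjusted p = 5.42e-11). QARS1 had 128, 121 and 117 CPM with KB05, against 162, 182 and 192 CPM with DMSO, and fell by 0.55 ± 0.07 (SE, adjusted p = 2.79e-07). IARS1, the cytosolic isoleucine enzyme of the complex (chr9:92210207-92293756), had 99.3, 108 and 99.6 CPM with KB05, against 156, 143 and 141 CPM with DMSO. The KB05 libraries of IARS1 lay well below all others, and it fell by 0.52 ± 0.07 on the log2 scale (SE, adjusted p = 4.43e-07). LARS2 had 47.7, 51.1 and 52.9 CPM with KB05, against 71.8, 69.9 and 60.8 CPM with DMSO, and fell by 0.42 ± 0.08 (SE, adjusted p = 0.00013).

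The remaining falls with KB05 lay between 0.19 and 0.37 on the log2 scale. They included FARSB, the beta subunit partner of FARSA, at -0.37 ± 0.08 and the mitochondrial valine enzyme VARS2 at -0.37 ± 0.08. The leucine enzyme LARS1 at -0.27 ± 0.08, RARS1 at -0.26 ± 0.09 and the bifunctional glutamate and proline enzyme EPRS1 at -0.19 ± 0.07 also fell. VARS2 shares 21.1% of its 31-base words with the overlapping gene GTF2H4. RARS1 lost its call without DMSO replicate 2 or 3 or KB05 replicate 1 (log2 fold change -0.26 to -0.19, adjusted p = 0.0603 to 0.123). EPRS1 lost its call without DMSO replicate 1 or 2 or KB05 replicate 2 or 3 (log2 fold change -0.20 to -0.15, adjusted p = 0.0662 to 0.173), with upper-quartile factors and with library size alone (-0.17 to -0.16, adjusted p = 0.0632 to 0.0793).

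**Figure D3:**
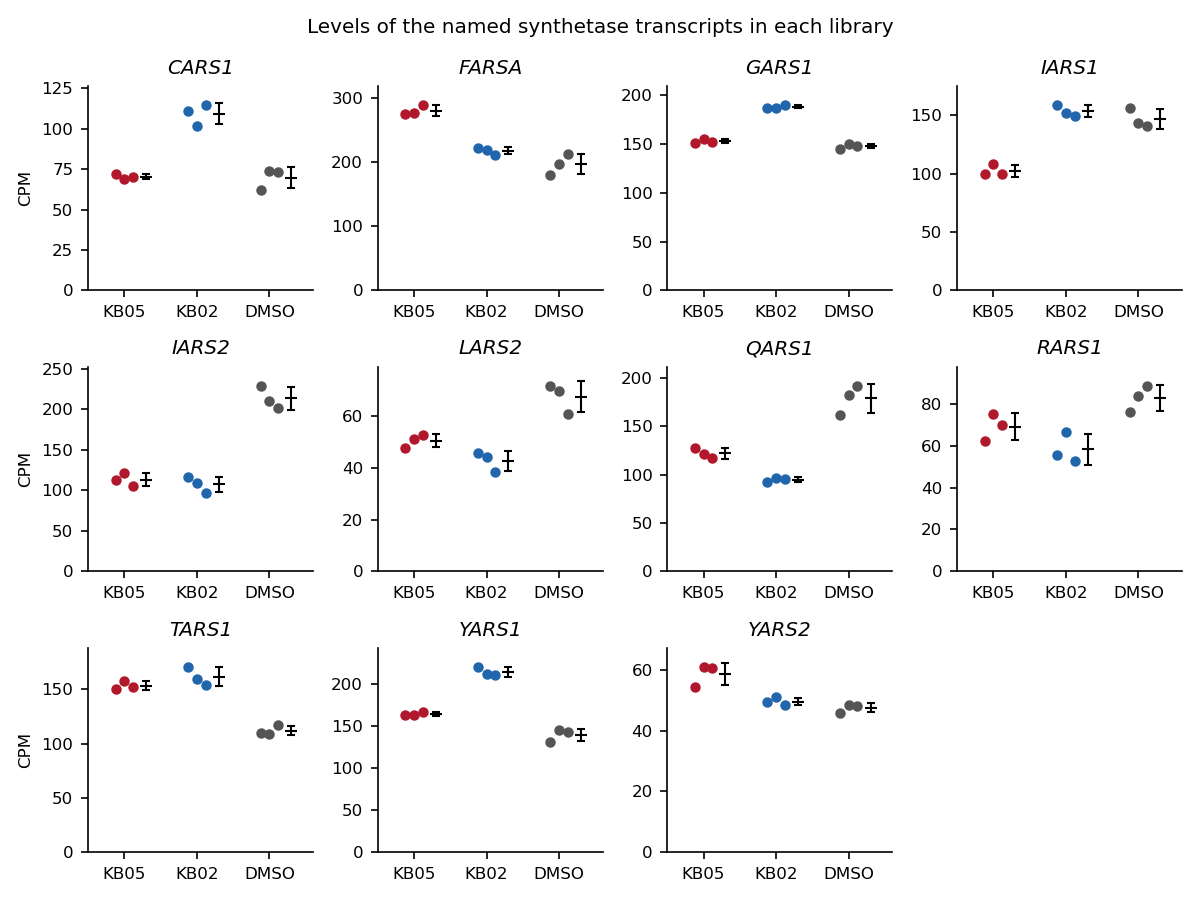
CPM of 11 synthetase genes in each library of the KB05, KB02 and DMSO groups, 1 point per library, with the mean and SD of each group as the bar beside it. IARS2 and QARS1 are lower with either compound than with DMSO, CARS1 and GARS1 are high in KB02 libraries, and FARSA is high and IARS1 low in KB05 libraries.

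FARSA and FARSB encode the subunits of 1 enzyme and moved apart with KB05. The log2 ratio of FARSA over FARSB, singled out after these values were seen, was 2.16, 2.12 and 2.17 in KB05 libraries, 1.58, 1.46 and 1.66 in KB02 libraries and 1.25, 1.25 and 1.29 in DMSO libraries. The 3 groups did not overlap. With KB02, FARSA at 0.14 (95% interval 0.00 to 0.29) and FARSB at -0.15 (-0.30 to 0.00) were not called in the main fit. FARSA was called with KB02 in 4 alternative fits: upper-quartile factors, library size alone, DESeq2 and without DMSO replicate 3. FARSB was called with KB02 in 1, without DMSO replicate 1.

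Of the 8 synthetases of the multisynthetase complex, 5 fell with KB05 and 3 were not called, with a median log2 fold change of -0.23. Among all genes 18.7% rose and 21.1% fell with KB05, and 22.8% rose and 23.3% fell with KB02. IARS1, QARS1, LARS1, RARS1 and EPRS1 fell, while MARS1 at -0.15 and KARS1 at 0.16 were among those not called. Of the 12 cytosolic genes outside the complex, 5 rose, 1 fell and 6 were not called, with a median of 0.11. With KB02, 3 of the 8 complex genes fell, QARS1 and RARS1 among them, and MARS1 rose, and 5 of the 12 others rose and 2 fell, with medians of 0.04 in the complex and 0.09 outside it. With KB02, 50% of the complex genes and 58.3% of the others were called, beside 46.1% of all genes. These sets were compared as counts and not tested against each other.

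Grouped by catalytic fold, cytosolic class I genes had 1 rise and 4 falls of 9 with KB05 (median log2 fold change -0.17), and class II genes had 4 rises and 1 fall of 10 (median 0.17). EPRS1, which joins a domain of each class, is in neither count. With KB02, class I genes had 3 rises and 3 falls of 9 (median 0.06) and class II genes 3 rises and 2 falls of 10 (median 0.04). The share called was 55.6% of class I and 50% of class II with KB05, beside 39.8% of all genes, and 66.7% and 50% with KB02, beside 46.1% of all genes. Class I overlaps the complex, since IARS1, LARS1, MARS1, QARS1 and RARS1 belong to both.

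The genes with the promoter core did not move as one. With KB05, 2 of the 7 cytosolic genes that hold it rose (TARS1 and AARS1), 1 fell (IARS1) and 4 were not called, with a median log2 fold change of 0.02. With KB02, 4 of the 7 rose (CARS1, TARS1, GARS1 and MARS1), 1 fell (NARS1) and 2 were not called, with a median of 0.21. The 9 cytosolic genes whose windows lack it had 2 rises and 4 falls with KB05 (median -0.10), and 1 rise and 2 falls with KB02 (median 0.03). The cytosolic genes with no window, YARS1, VARS1 and LARS1 among them, are in neither count, and YARS1 had the second largest rise with KB02. YARS2, the mitochondrial gene with the core, rose with KB05 and was not called with KB02. Beside these counts, 18.7% of all genes rose and 21.1% fell with KB05, and 22.8% rose and 23.3% fell with KB02. The promoter counts were not tested against the fold changes.

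KB05 and KB02 were compared directly at the matched dose and time, as 1 pair of compounds with p-values adjusted over all genes tested. Of the 37 synthetases, 7 were higher and 10 lower with KB05 than with KB02, 45.9% in all. Among all genes, 40.0% were called, with 21.8% higher and 18.2% lower, and the median log2 difference was 0.06. The calls lay in 13 of 20 cytosolic genes (65%) and 4 of 17 mitochondrial genes (23.5%). With scaling by library size alone, 2 synthetases were higher, the median of all genes was -0.06, and 37.4% of calls over all genes were higher in place of 54.4%. The same scaling also called AARS2, HARS1, NARS2 and TARS1 lower with KB05 than with KB02. The number higher was 4 without KB02 replicate 1, KB05 replicate 2 or KB05 replicate 3.

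CARS1 was the gene that differed most, at 72.2, 68.8 and 70.4 CPM with KB05 against 111, 102 and 115 CPM with KB02, a log2 difference of -0.63 ± 0.08 (SE, adjusted p = 3.95e-08). Its KB05 libraries lay within the range of the DMSO libraries, and its log2 fold change over DMSO was 0.02 (95% interval -0.14 to 0.17). IARS1 differed in the same direction, at 99.3, 108 and 99.6 CPM with KB05 against 159, 152 and 149 CPM with KB02, a log2 difference of -0.59 ± 0.07 (SE, adjusted p = 3.81e-08). For IARS1 it was the KB02 libraries that overlapped with DMSO. FARSA was higher with KB05, at 274, 276 and 289 CPM against 222, 218 and 211 CPM with KB02, a log2 difference of 0.37 ± 0.07 (SE, adjusted p = 6.88e-05). QARS1 was also higher with KB05, at 128, 121 and 117 CPM against 91.9, 96.6 and 95.6 CPM with KB02, a log2 difference of 0.37 ± 0.07 (SE, adjusted p = 0.000124), and was below DMSO with either compound.

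Also higher with KB05 than with KB02 were AARS1, RARS1, YARS2 and LARS2, at log2 differences of 0.24 to 0.27. With scaling by library size alone none of these 4 was called, AARS1 at 0.15 with an adjusted p of 0.071 and the others at 0.12 to 0.13 with adjusted p-values of 0.202 to 0.289. DESeq2 did not call RARS1 or LARS2 (adjusted p = 0.0819 to 0.101), and RARS1 was not called with RLE or upper-quartile factors or with only the groups compared (adjusted p = 0.0515 to 0.0833). RARS1, YARS2 and LARS2 lost this call in 3 to 5 of the fits that left out 1 library, with adjusted p-values of 0.0503 to 0.254. The libraries left out were KB02 replicates 1 and 3 and KB05 replicates 2 and 3 for RARS1, KB02 replicates 1 and 2 and KB05 replicate 2 for YARS2, and all but KB05 replicate 1 for LARS2. YARS1 at -0.38 ± 0.07, MARS1 at -0.36 ± 0.07, LARS1 at -0.34 ± 0.08 and GARS1 at -0.30 ± 0.06 were lower with KB05 by the log2 difference, and remained called in every alternative fit. VARS2, EPRS1, FARSB and CARS2 were lower by 0.21 to 0.27. Of these, EPRS1 lost its call without KB05 replicate 3 (adjusted p = 0.0694), FARSB without KB05 replicate 1 (adjusted p = 0.0708) and CARS2 without KB05 replicate 1 or 2 (adjusted p = 0.0547 to 0.0747).

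In the main fit, no difference between the compounds was called for TARS1 or IARS2, each of which was called over DMSO with either compound. The log2 difference, KB05 over KB02, was -0.08 for TARS1 (95% interval -0.21 to 0.06) and 0.08 for IARS2 (95% interval -0.08 to 0.23). These intervals leave room for small differences in either direction.

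**Figure D4:**
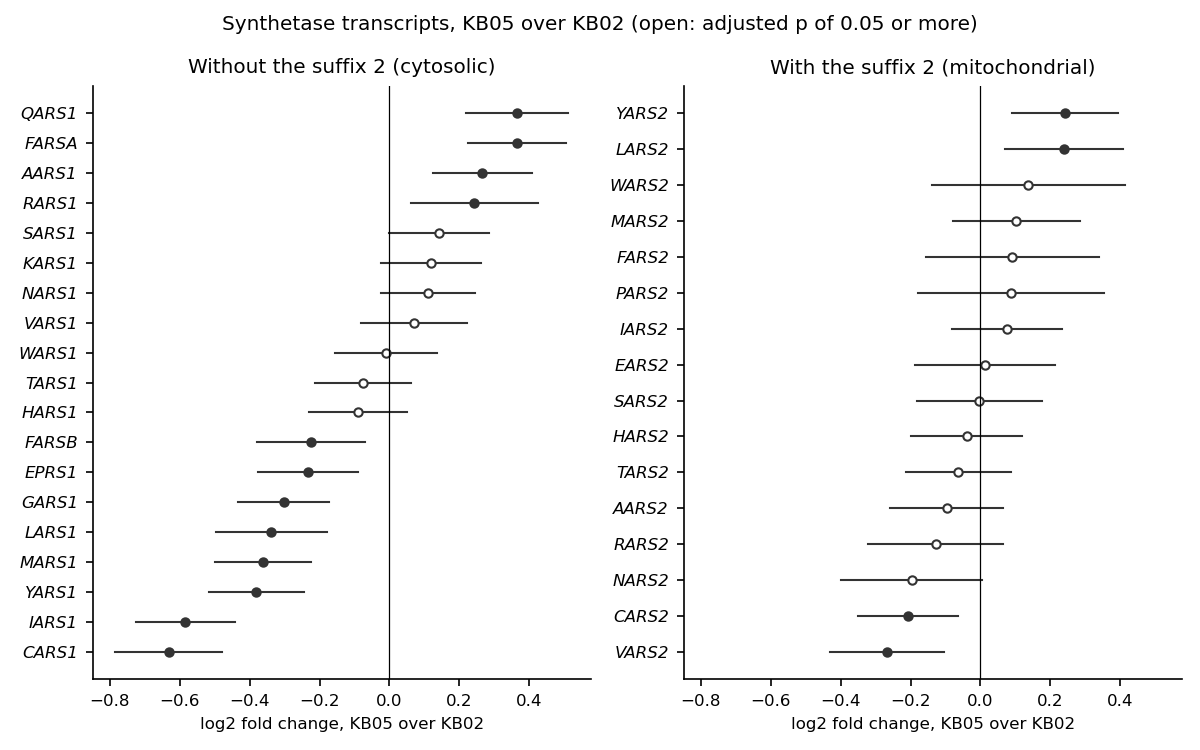
Log2 fold change of the synthetases described here, KB05 over KB02, with 95% intervals, cytosolic genes left and mitochondrial genes right, each ordered by value. Filled points passed an adjusted p of 0.05. CARS1 and IARS1, near -0.6, stand at the low end, and QARS1 and FARSA at 0.37 at the high end.

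Summed over genes in CPM, the mitochondrial synthetases were lower with either compound than with DMSO, and the cytosolic sums overlapped with DMSO. The 17 mitochondrial genes summed to 709, 738 and 730 CPM in KB05 libraries, 757, 738 and 681 CPM in KB02 libraries and 865, 872 and 851 CPM in DMSO libraries. IARS2 alone made up 14.4% to 16.4% of that sum in KB05 libraries, 14.2% to 15.3% in KB02 libraries and 23.6% to 26.5% in DMSO libraries. Without IARS2, a sum taken after these values were seen, the other 16 genes held 596 to 625 CPM with KB05, 585 to 641 with KB02 and 636 to 662 with DMSO, so that KB02 and DMSO overlapped. The 20 cytosolic genes summed to 2978, 2976 and 2995 CPM with KB05, 3142, 3048 and 2996 with KB02 and 2833, 3023 and 3101 with DMSO. The sums with KB02 depended on the scaling. As a percent of all counts, with no scaling factors, the cytosolic genes held 0.288% to 0.295% with KB05, 0.314% to 0.333% with KB02 and 0.278% to 0.295% with DMSO, so that KB02 lay above DMSO. The mitochondrial genes held 0.0693% to 0.0732% with KB05, 0.0714% to 0.0802% with KB02 and 0.0797% to 0.0852% with DMSO, so that KB02 overlapped with DMSO and KB05 lay below it.

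Cytosolic and mitochondrial enzymes of the same amino acid were compared as a log2 ratio of CPM within each library, over 18 pairings. EPRS1 and FARS2 each enter 2 of these, and the ratios were not tested. The change of the ratio from the DMSO mean ran from -0.54 to 0.54 with KB05 (median 0.02) and from -0.48 to 1.06 with KB02 (median 0.11). The isoleucine pair moved most with KB02. The log2 ratio of IARS1 over IARS2 was -0.18, -0.17 and -0.08 in KB05 libraries, 0.46, 0.48 and 0.62 in KB02 libraries and -0.55, -0.55 and -0.51 in DMSO libraries. The 3 groups did not overlap, and IARS1 transcripts outnumbered those of IARS2 in CPM only in KB02 libraries.

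For leucine, the log2 ratio of LARS1 over LARS2 was -0.15, -0.29 and -0.43 with KB05, 0.10, 0.22 and 0.56 with KB02 and -0.51, -0.54 and -0.23 with DMSO, and KB05 overlapped with DMSO. For threonine, TARS1 over TARS2 stood at 1.19, 1.18 and 1.11 with KB05, 1.18, 1.20 and 1.13 with KB02 and 0.71, 0.56 and 0.58 with DMSO. The threonine ratios of the compounds overlapped, and all lay above DMSO. For arginine, RARS1 over RARS2 was 1.34, 1.62 and 1.49 with KB05, 1.08, 1.23 and 1.03 with KB02 and 1.35, 1.52 and 1.91 with DMSO, lower in KB02 libraries than in all others. For serine, the value of SARS2 is uncertain, since 42% of its 31-base words occur in the read-through gene AC011455.2.

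**Figure D5:**
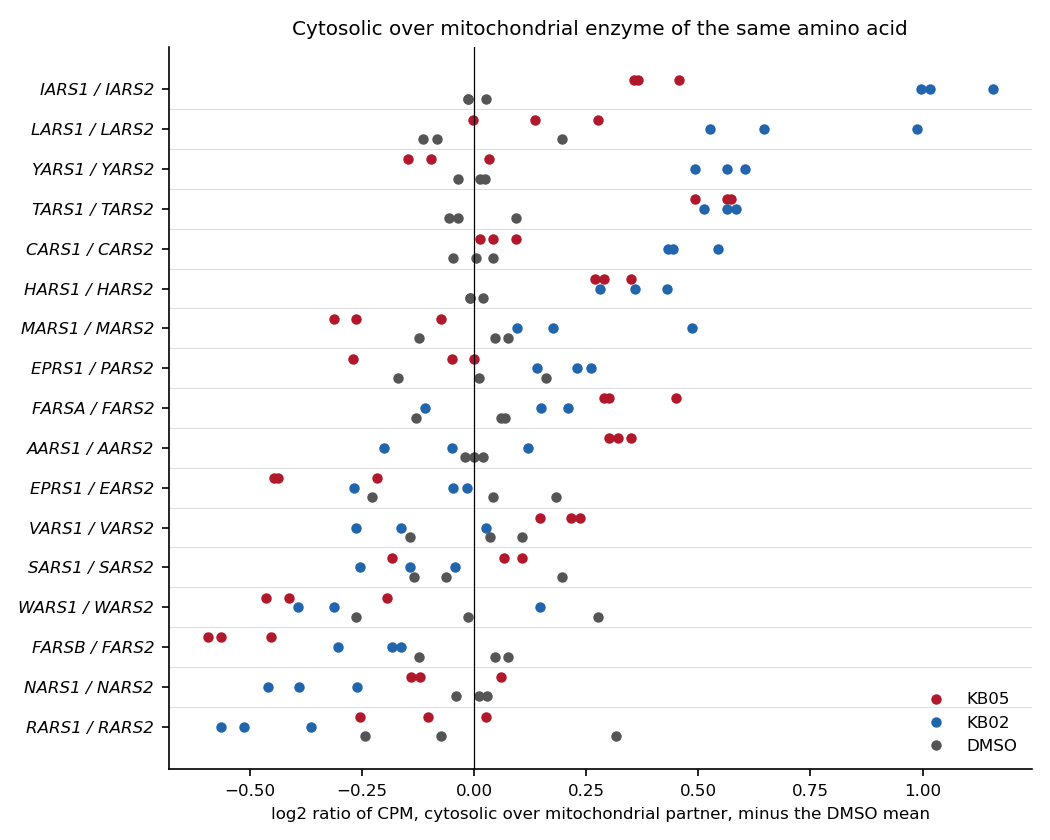
Log2 ratio of CPM of the cytosolic over the mitochondrial enzyme of the same amino acid, for the pairs described here, minus its mean in DMSO libraries, for KB05 (red), KB02 (blue) and DMSO (grey), 1 point per library. The isoleucine pair lies about 1.06 above the DMSO mean with KB02 and 0.40 above it with KB05, and the threonine pair lies near 0.5 with either compound.

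Of the 3 scaffold genes of the complex, AIMP2 changed with KB02. It had 110, 119 and 117 CPM with KB05, 79.3, 74.0 and 61.9 CPM with KB02 and 107, 123 and 124 CPM with DMSO. AIMP2 fell by 0.72 ± 0.08 on the log2 scale with KB02 (SE, adjusted p = 1.69e-08) and was 0.68 ± 0.08 higher with KB05 than with KB02 (adjusted p = 7.13e-08). AIMP1 and EEF1E1 were not called against DMSO with either compound, and AIMP2 was not called with KB05, at a log2 fold change of -0.03 ± 0.08. EEF1E1 was also higher with KB05 than with KB02, by 0.52 ± 0.13 (adjusted p = 0.00181). The share of scaffold genes called was 33.3% with KB02 against DMSO, beside 46.1% of all genes. Between the compounds it was 66.7%, beside 40.0% of all genes.

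A further list held 11 genes of synthetase-like proteins and of accessory proteins of tRNA charging and handling. Of these, 4 rose and 7 were not called with KB05 (median log2 fold change 0.19), and 6 rose and 5 were not called with KB02 (median 0.23). The share called was 36.4% with KB05, beside 39.8% of all genes, and 54.5% with KB02, beside 46.1% of all genes. ANKRD16, known in mice as a partner of the alanine enzyme that captures misactivated serine, had 14.7, 18.7 and 17.2 CPM with KB05, 13.7, 14.4 and 13 CPM with KB02 and 8.26, 10.1 and 10.3 CPM with DMSO. Its log2 fold change was 0.82 ± 0.12 with KB05 (adjusted p = 3.32e-06) and 0.52 ± 0.12 with KB02 (adjusted p = 0.000814). AARSD1, an editing protein that resembles part of the alanine enzyme, rose by 0.38 ± 0.09 with KB05 and by 0.26 ± 0.09 with KB02 on the log2 scale. QRSL1, a subunit of the mitochondrial amidotransferase, rose by 0.35 ± 0.11 with KB05 (adjusted p = 0.0112) and by 0.59 ± 0.11 with KB02 (adjusted p = 3.04e-05).

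In the selenocysteine pathway, which builds that amino acid on a serine-charged tRNA, 2 of 6 genes rose and 2 fell with KB05, and 2 rose and 1 fell with KB02. The share called was 66.7% with KB05, beside 39.8% of all genes, and 50% with KB02, beside 46.1% of all genes. SEPSECS, the enzyme of the last step, had 6.41, 6.44 and 7.53 CPM with KB05, 7.71, 6.21 and 7.20 CPM with KB02 and 12.4, 12.4 and 13.8 CPM with DMSO. It fell by 0.92 ± 0.14 with KB05 (adjusted p = 2.38e-06) and by 0.87 ± 0.13 with KB02 (adjusted p = 2.32e-06) on the log2 scale. SEPHS2, which makes the selenium donor, rose by 0.71 ± 0.07 with KB05 and 0.51 ± 0.07 with KB02.

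Elongation factors, which take charged tRNA to the ribosome and move it along, gave 1 rise and 3 falls of 9 genes with KB05 and 2 rises and 4 falls with KB02. That is 44.4% called with KB05, near the 39.8% of all genes, and 66.7% with KB02, beside 46.1% of all genes. GFM1, the mitochondrial factor for translocation, had 23.8, 30.9 and 25.5 CPM with KB05, 26.7, 30.4 and 25.2 CPM with KB02 and 57.2, 54.3 and 47.4 CPM with DMSO. It fell by 0.99 ± 0.10 with KB05 (adjusted p = 4.48e-09) and by 0.95 ± 0.10 with KB02 (adjusted p = 2.53e-09) on the log2 scale, close in size to IARS2. GFM2, which recycles mitochondrial ribosomes, fell by 0.33 ± 0.09 with KB05 and by 0.31 ± 0.09 with KB02. The cytosolic EEF1D rose by 0.33 ± 0.07 with KB05 and by 0.44 ± 0.07 with KB02.

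ATF4 and 15 of its reported targets mostly rose, with 11 higher and 2 lower of 16 with KB05 (median log2 fold change 0.73) and 13 higher and 3 lower with KB02 (median 0.72). Among all genes 18.7% rose with KB05 and 22.8% with KB02. ATF3, a stress-induced transcription factor, had log2 fold changes of 3.37 ± 0.08 with KB05 and 2.67 ± 0.08 with KB02. DDIT3 rose by 3.23 ± 0.08 with KB05 and by 2.64 ± 0.08 with KB02. CHAC1, which degrades glutathione, rose by 2.98 ± 0.11 with KB05 and by 2.85 ± 0.11 with KB02. Beside these, the largest rise of a synthetase was 0.65. Of the 4 eIF2 kinases and the 2 eIF2 phosphatase subunits listed, PPP1R15A, the inducible phosphatase subunit, rose by 2.09 ± 0.08 with KB05 and 2.22 ± 0.08 with KB02, and PPP1R15B rose by 0.48 ± 0.07 with KB02. In all, 1 of these 6 genes rose and 5 were not called with KB05, and 2 rose and 1 fell with KB02. The share called was 16.7% with KB05, beside 39.8% of all genes, and 50% with KB02, beside 46.1% of all genes.

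Of 14 genes of amino acid synthesis, 6 rose and 2 fell with KB05 (median log2 fold change 0.10), and 4 rose and 3 fell with KB02 (median 0.05). The share called was 57.1% with KB05, beside 39.8% of all genes, and 50% with KB02, near the 46.1% of all genes. ASNS, the asparagine synthetase and a known ATF4 target, had 261, 249 and 249 CPM with KB05, 420, 389 and 396 CPM with KB02 and 166, 184 and 203 CPM with DMSO. It rose by 0.46 ± 0.07 with KB05 (adjusted p = 7.02e-06) and by 1.12 ± 0.07 with KB02 (adjusted p = 5.4e-14). CTH, which makes cysteine from cystathionine, rose by 0.96 ± 0.17 with KB05 (adjusted p = 4.88e-05) and by 0.60 ± 0.17 with KB02 (adjusted p = 0.00515). ALDH18A1, which starts proline synthesis, fell by 0.63 ± 0.07 with KB05 and by 1.00 ± 0.07 with KB02.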

How the data were processed

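The authors deposited estimated counts per gene, 1 column per library and unscaled. The submitters' processing notes name Salmon 1.3.0, DESeq2 1.30.1, hg38 and GRCh38.p13. Annotation release, strand setting and the summing to genes: not given in the sources used here. All counts were rounded, as 20.3% to 24.3% of values per library were not whole.

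Symbols came from a name table that matched 60064 of 60232 identifiers. Positions, transcript lengths and shared 31-base words came from GENCODE release 29 on GRCh38, promoter windows from RefSeq (GRCh38.p14). The length of a gene was that of its longest coding transcript annotated as principal, or else of its longest coding transcript. Genes passing filterByExpr (minimum count 10, 18379 genes) were tested in R 4.3.3 with edgeR 4.0.16: TMM factors, robust quasi-likelihood fit to all 9 libraries with 3 groups and no block, Benjamini-Hochberg adjustment over all genes, threshold 0.05. The SE is the log2 fold change divided by the square root of F. Replicates differed beyond sampling noise (chi-square per degree of freedom 4.56 to 10.9), so all 9 were counted. The fit was tested on simulated data with far fewer changed genes than were called here, evenly up and down, and the same spread for all genes. That test therefore does not cover scaling when many genes change.

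Full values are given for the 4 largest rises and falls among called members against DMSO, the 2 largest each way between compounds, and 2 genes from each other list per comparison with DMSO. The members, lists, catalytic classes and motif were chosen with earlier results of these data known. Alternatives were RLE, upper-quartile and no scaling factors, no filter, DESeq2 1.42.0, limma-voom (limma 3.58.1), a replicate block, only the groups compared, and leaving out each library. Some genes are in the counts and medians but are not reported here by name or drawn.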

Additional observations from a re-analysis of the deposited data

How the results depend on the processing

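No call of a member changed direction in any alternative. Of the calls, 12 of 16 for KB05 against DMSO, 10 of 15 for KB02 against DMSO and 9 of 17 for KB05 against KB02 held in every alternative run for that comparison. Some members not called in the main fit were called in alternatives. For KB05 against DMSO, SARS1 was called in 6, VARS1 in 4, and MARS1 and KARS1 in 3 each. For KB02 against DMSO, FARSA and SARS2 were called in 4 each and NARS2 in 3. Scaling by library size alone gave 17 higher and 5 lower members for KB02 against DMSO. For KB05 against KB02 it gave 2 higher, and more lower than the main fit. It also moved the median log2 fold change to 0.18 (cytosolic) and 0.11 (mitochondrial) for KB02 against DMSO, and to -0.16 (cytosolic) and -0.10 (mitochondrial) for KB05 against KB02. Under that scaling the median of all genes was 0.13 in place of 0.002 for KB02 against DMSO, and -0.058 in place of 0.056 for KB05 against KB02. The cytosolic median for KB02 against DMSO was 0.093 with upper-quartile factors. For KB05 against DMSO the cytosolic median was 0 with upper-quartile factors, -0.051 with DESeq2 and -0.085 without GARS1 and KARS1. For KB05 against KB02 it was -0.071 with RLE factors, -0.064 with upper-quartile factors, -0.072 with DESeq2 and -0.083 with only the groups compared. The cause of these shifts was not tested. Leaving out 1 library gave cytosolic medians of -0.067 to -0.022 for KB05 against DMSO and -0.094 to -0.031 for KB05 against KB02, and 4 to 7 members higher for KB05 against KB02.

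With the replicate number as a replicate block, 17 members were called for KB05 against DMSO, 15 for KB02 against DMSO and 17 for KB05 against KB02. Same-numbered libraries did not deviate together (correlations of -0.04 to 0.08), so the numbers were not read as a pairing.

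Treatments are labelled as biological triplicates of 1 line, and 3 libraries a group limit precision to the intervals given. Genes of low level, such as WARS2 and PARS2, had intervals wide enough to hide changes of the size called elsewhere.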

Other observations

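The amino acid transporters in the list of ATF4 targets did not move together, which was noticed after their values were seen. SLC7A11, the cystine carrier, had 27.8, 25.2 and 24.8 CPM with KB05, 66.1, 58.8 and 69.2 CPM with KB02 and 40.8, 34.3 and 32.9 CPM with DMSO. It fell by 0.47 ± 0.09 with KB05 and rose by 0.84 ± 0.09 with KB02 on the log2 scale, and its difference, KB05 over KB02, was -1.32 ± 0.09 (adjusted p = 4.97e-13). SLC7A5, a carrier of large neutral amino acids, fell by 0.32 ± 0.07 with KB05 and by 0.51 ± 0.07 with KB02. SLC3A2, the heavy chain that both carriers share, had 1512, 1465 and 1504 CPM with KB05, 812, 750 and 816 CPM with KB02 and 602, 656 and 732 CPM with DMSO.

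Among the prostate luminal markers, 5 rose and 2 fell of 10 with KB05, and 2 rose and 6 fell with KB02. The share called was 70% with KB05, beside 39.8% of all genes, and 80% with KB02, beside 46.1% of all genes. TMPRSS2, a membrane protease driven by androgen, fell by 0.81 ± 0.08 with KB05 and by 1.34 ± 0.08 with KB02 on the log2 scale. EPCAM, an epithelial adhesion protein, fell by 0.38 ± 0.07 with KB05 and by 1.44 ± 0.08 with KB02. KLK2, a secreted kallikrein, rose by 0.42 ± 0.07 with KB05 and fell by 0.32 ± 0.07 with KB02. Of the 8 tested markers of other cell types, 25% were called with KB05, beside 39.8% of all genes, and 37.5% with KB02, beside 46.1%. COL1A1 rose by 0.45 ± 0.12 with KB05 and by 0.65 ± 0.11 with KB02. SYP fell by 0.26 ± 0.07 with KB05 and by 0.99 ± 0.07 with KB02, and CHGA fell by 0.91 ± 0.22 with KB02. COL3A1 (0.373 with KB05, 0.076 with KB02) and ACTA2 (-0.311 with KB05, -0.345 with KB02) were not called with either compound.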
